A study of Mus musculus with 2 samples.

Results

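The 10 genes described here encode glutathione transferases. They are the cytosolic enzymes Gstm1, Gstm2 and Gstm5 (mu class), Gsta4 (alpha), Gstt1 (theta), Gstp1 (pi) and Gsto1 (omega), and the membrane enzymes Mgst1, Mgst2 and Mgst3. Each was taken by its exact symbol in the platform annotation, which gave 16 probe sets for the 10 genes, out of 18193 genes that the arrays named. The comparison was between mouse embryonic fibroblasts (MEFs) homozygous for the disrupted Fut8 gene (Fut8-/-) and MEFs with both normal copies (Fut8+/+). Fut8 encodes the fucosyltransferase that adds core fucose to N-glycans. Biotin-labelled total RNA was hybridised to Affymetrix mouse arrays, with 1 array per genotype. Both cultures were grown in serum-containing medium with no other treatment named. The design text gives 3 as the number of cultures for each genotype; the labels do not say how many of them contributed RNA to an array, nor do they name the embryos' strain, sex or age.

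Glutathione transferases couple the thiol of glutathione to electrophilic compounds, which makes them more soluble and lets export pumps remove them. The cytosolic classes are soluble dimers, whereas the microsomal enzymes belong to the MAPEG family of membrane proteins. Several members also reduce lipid peroxides. The genes of the mu class, and those of the theta class, lie side by side in the mouse genome. Many of these genes are known targets of Nrf2, a transcription factor that binds the antioxidant response element, and of related stress factors.

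With 1 array per genotype there was no replicate check and no test of genotype, and precision is limited throughout by this number of arrays. Signals are printed as deposited, in linear intensity units. Log2 ratios of Fut8-/- over Fut8+/+ were centred, because the median ratio of probe sets well above the lowest signals was -0.22; the centring multiplies Fut8-/- signals by 1.16. Scaled signals under 12.3 were raised to that floor. Where only 1 array lay at the floor, the ratio is a bound, written as at least that size. A gene counted as measured where its brighter array reached 39.1, and a difference was counted at 2-fold or more. A gene was represented by its probe set of highest mean log2 signal. Probe sets of the same gene differed in log2 ratio with an SD of 0.40, a technical spread within this pair of arrays (5389 genes), not the spread between cultures.

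At its brightest probe set, Fut8 had a signal of 11.7 in Fut8-/- cells against 190.9 in Fut8+/+ cells. This checks the labels only if the probe set reads the disrupted part of the gene, and its position there is not stated in the labels. Sex-linked transcripts differed as well. Xist had a signal of 15.2 in Fut8-/- and 656 in Fut8+/+, and the Y-linked Eif2s3y 2845 in Fut8-/- and 7.06 in Fut8+/+. Kdm5d (655 and 0.404) and Uty (413 and 7.59), both Y-linked, were likewise brighter in Fut8-/- than in Fut8+/+. Sex and genotype therefore cannot be told apart in these 2 arrays. The fibroblast markers Vim (11110 in Fut8-/- and 11471 in Fut8+/+) and Col1a2 (9433 and 11280) were bright on both arrays, while Thy1, Dcn, Lum and Fap were under the measured limit on both. Other fibroblast markers were at least 2-fold lower in Fut8-/-: Prrx1 had 7.26 in Fut8-/- and 221 in Fut8+/+, Fbln2 322 and 1897, Col1a1 941 and 2832, and Pdgfra 23.6 and 61.9. Pdgfrb went the other way, with 626 in Fut8-/- and 342 in Fut8+/+ (log2 ratio 1.09). Col3a1, S100a4, Twist1 and Ddr2 lay within 2-fold.

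All 10 glutathione transferase genes were measured. Of these, 5 were at least 2-fold higher in Fut8-/-, namely Mgst1, Gstm1, Gstt1, Gstm5 and Gsta4, and 1, Mgst2, was at least 2-fold lower; 4 lay between. Over all 10164 measured genes, the shares past the same limits were 6.08% higher and 8.46% lower. The 10 genes were selected on their log2 ratios in this same contrast, so nothing is read from their count or their median. Their median log2 ratio was 0.82, with a range of -2.55 to 5.51, against a median of 0.00 over all measured genes. Without centring, the same count of 5 higher and 1 lower was found, with a median of 0.61, against 4.08% higher and 11.8% lower of 10194 measured genes.

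**Figure D1:**
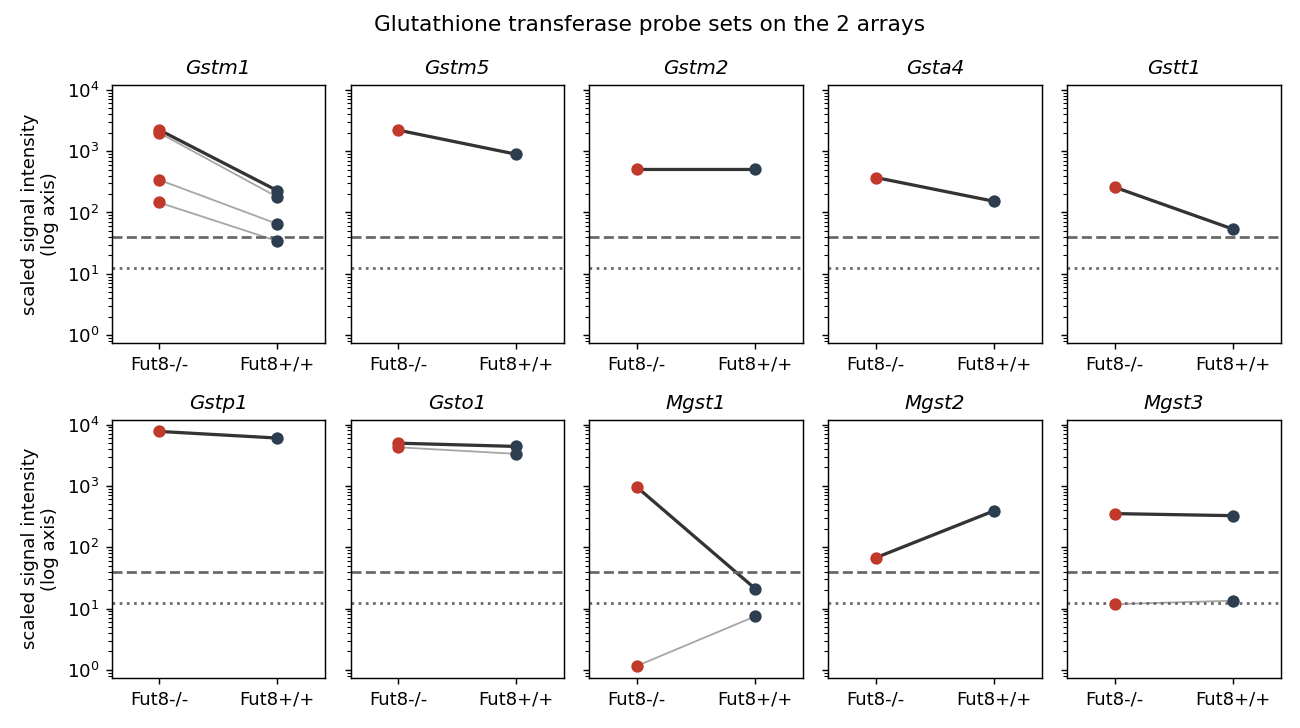
Signal of every probe set of the 10 genes on the Fut8-/- array (red, left) and the Fut8+/+ array (blue, right), after scaling, on a log axis; a line joins the values of 1 probe set, and the darker line is the probe set used for the gene. The dotted line is the floor of 12.3 and the dashed line the measured limit of 39.1. All 4 lines of Gstm1 run down to the right, Mgst2 runs up, and the fainter probe set of Mgst1 lies under the floor on both arrays.

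The stretches of 250 bases upstream of annotated transcription starts are shown for 5 genes, so that the members past 2-fold can be set side by side. They are Mgst1, Gstm5, Gstm1 and Gstt1, which were higher in Fut8-/-, and Mgst2, which was lower; for Mgst1 and Gstm1, which have a second annotated start, the more upstream one is shown. The sequences are those of RefSeq on build GRCm38.p6, printed 5′ to 3′ on the gene's strand. Capitals mark a match on either strand to the core of the antioxidant response element, TGACNNNGC, or to the AP-1 site TGACTCA. Both motifs begin with TGAC, so 1 site can match both, but no site did here.
Mgst1, chr6:138140277-138140526, plus strand: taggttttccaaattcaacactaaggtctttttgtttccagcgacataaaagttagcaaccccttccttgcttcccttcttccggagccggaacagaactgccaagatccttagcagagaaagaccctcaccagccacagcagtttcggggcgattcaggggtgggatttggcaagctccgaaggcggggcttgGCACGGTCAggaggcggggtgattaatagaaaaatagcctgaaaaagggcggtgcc
Gstm5, chr3:107895604-107895853, plus strand: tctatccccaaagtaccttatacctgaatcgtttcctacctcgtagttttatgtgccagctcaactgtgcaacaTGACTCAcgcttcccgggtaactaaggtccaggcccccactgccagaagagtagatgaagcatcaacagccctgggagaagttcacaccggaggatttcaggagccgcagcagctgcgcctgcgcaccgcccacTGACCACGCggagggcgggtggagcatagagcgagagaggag
Gstm1, chr3:108017974-108018223, minus strand: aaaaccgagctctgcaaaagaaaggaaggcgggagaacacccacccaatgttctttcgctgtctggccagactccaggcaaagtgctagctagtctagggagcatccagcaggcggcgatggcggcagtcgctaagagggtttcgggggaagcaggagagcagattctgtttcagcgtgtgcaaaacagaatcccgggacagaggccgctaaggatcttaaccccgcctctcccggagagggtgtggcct
Gstt1, chr10:75797732-75797981, minus strand: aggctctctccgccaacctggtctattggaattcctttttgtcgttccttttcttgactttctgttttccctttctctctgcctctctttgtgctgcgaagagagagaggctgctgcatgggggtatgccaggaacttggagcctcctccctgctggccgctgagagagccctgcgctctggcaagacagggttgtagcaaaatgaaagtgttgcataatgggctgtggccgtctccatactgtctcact
Mgst2, chr3:51660929-51661178, plus strand: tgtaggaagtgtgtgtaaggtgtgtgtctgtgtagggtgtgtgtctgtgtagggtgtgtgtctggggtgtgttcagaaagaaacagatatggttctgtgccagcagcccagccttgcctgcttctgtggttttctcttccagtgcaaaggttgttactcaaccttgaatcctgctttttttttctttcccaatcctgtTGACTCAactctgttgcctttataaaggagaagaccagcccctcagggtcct

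The Mgst1 stretch shown holds 1 element core, read on the opposite strand as TGACCGTGC, and Gstm5 holds 1, TGACCACGC, beside an AP-1 site. Mgst2 holds an AP-1 site. The stretch of Gstt1, both stretches of Gstm1 and the stretch at the second start of Mgst1 have no match to either motif. The promoter table held 11 stretches for 9 of the 10 genes; Gsta4 was the gene not in it. The element core was found in 2 of the 11 stretches, those of Mgst1 and Gstm5, and in 10.2% of the 32851 stretches of the same length in the table. The AP-1 site was found in 3 of the 11, those of Gstm5, Mgst2 and Gstp1, and in 4.46% of all stretches. These 3 genes were higher, lower and within 2-fold in Fut8-/-. A match describes letters in this window and is no evidence of binding.

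Among the membrane enzymes, Mgst1 and Mgst2 lay on opposite sides. Mgst1 encodes an enzyme of the endoplasmic reticulum and outer mitochondrial membrane that conjugates glutathione and reduces lipid hydroperoxides. Its brighter probe set reached 821 in Fut8-/- cells, against 21.0 in Fut8+/+ cells, and was thus 45.5-fold higher (log2 ratio 5.51). The Fut8+/+ signal was above the floor but under the measured limit. Of all measured genes, 9 had a log2 ratio as high or higher, Mgst1 included. The other probe set of Mgst1 had signals of 0.996 in Fut8-/- and 7.48 in Fut8+/+, both at the floor, and gave no ratio, so the difference rests on 1 of 2 probe sets. With the median over both probe sets, the floored value of 0 included, the log2 ratio was 2.75.

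Mgst2 encodes a membrane enzyme that also makes leukotriene C4 from leukotriene A4. Its only probe set had a signal of 57.9 in Fut8-/- and 393 in Fut8+/+, 5.84-fold lower in Fut8-/- (log2 ratio -2.55), and both signals were above the measured limit. Mgst3 encodes a related enzyme with peroxidase activity. The signal of Mgst3 was 303 in Fut8-/- and 327 in Fut8+/+, with a log2 ratio of 0.11 that turned to -0.11 without centring. The second probe set of Mgst3 was close to the floor on both arrays, at 10.1 in Fut8-/- and 13.4 in Fut8+/+.

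Gstm1 was the highest of the cytosolic genes in ratio. It encodes a mu class enzyme that is abundant in mouse liver. Its brightest probe set had a signal of 1916 in Fut8-/- and 227 in Fut8+/+, which is 9.84-fold higher (log2 ratio 3.30). A second probe set had 1712 in Fut8-/- and 178 in Fut8+/+, with a log2 ratio of 3.48. The remaining pair of probe sets were dimmer. One had 293 in Fut8-/- and 65.0 in Fut8+/+ (log2 ratio 2.39), and the other had 125 in Fut8-/- and 34.1 in Fut8+/+ (log2 ratio 2.09). All 4 were thus higher in Fut8-/-, by 4.26-fold to 11.2-fold. Mu class genes are near-identical in places, and the suffixes of the probe set names mark 2 of the 4 as able to read related sequences; how far paralogs contribute to a signal was not tested.

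Gstm5, another mu class enzyme, had a signal of 1895 in Fut8-/- and 889 in Fut8+/+, which is 2.48-fold higher (log2 ratio 1.31). Gstm2, the gene next to Gstm1, had 432 in Fut8-/- and 502 in Fut8+/+. Its log2 ratio was 0.00 after centring and -0.22 without it, so this member of the class did not share the difference seen in its neighbour.

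Gsta4 encodes an alpha class enzyme known for conjugating 4-hydroxynonenal, a product of lipid peroxidation. It had 319 in Fut8-/- and 152 in Fut8+/+, which is 2.44-fold higher (log2 ratio 1.29). Gstt1, a theta class enzyme that acts on small halogenated compounds, had 222 in Fut8-/- and 53.4 in Fut8+/+, which is 4.84-fold higher (log2 ratio 2.27). Each of these genes had 1 probe set, and both arrays were above the measured limit.

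Gstp1 and Gsto1 were bright on both arrays, and neither gene reached 2-fold. Gstp1, the pi class enzyme that also binds and restrains the kinase JNK, had 6642 in Fut8-/- and 6023 in Fut8+/+ (log2 ratio 0.36). Its paralog Gstp2 had no probe set of its own name, and whether the Gstp1 probe set also reads it was not tested. Gsto1, the omega class enzyme that reduces dehydroascorbate and removes glutathione from proteins, had 4272 in Fut8-/- and 4396 in Fut8+/+ (log2 ratio 0.18). Its second probe set had 3658 in Fut8-/- and 3326 in Fut8+/+ (log2 ratio 0.36). Without centring the Gsto1 log2 ratio turned to -0.04. The ratios of Gstp1, Gsto1, Gstm2 and Mgst3 were smaller than the 0.40 spread among probe sets of the same gene, whereas those of the other 6 were larger.

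**Figure D2:**
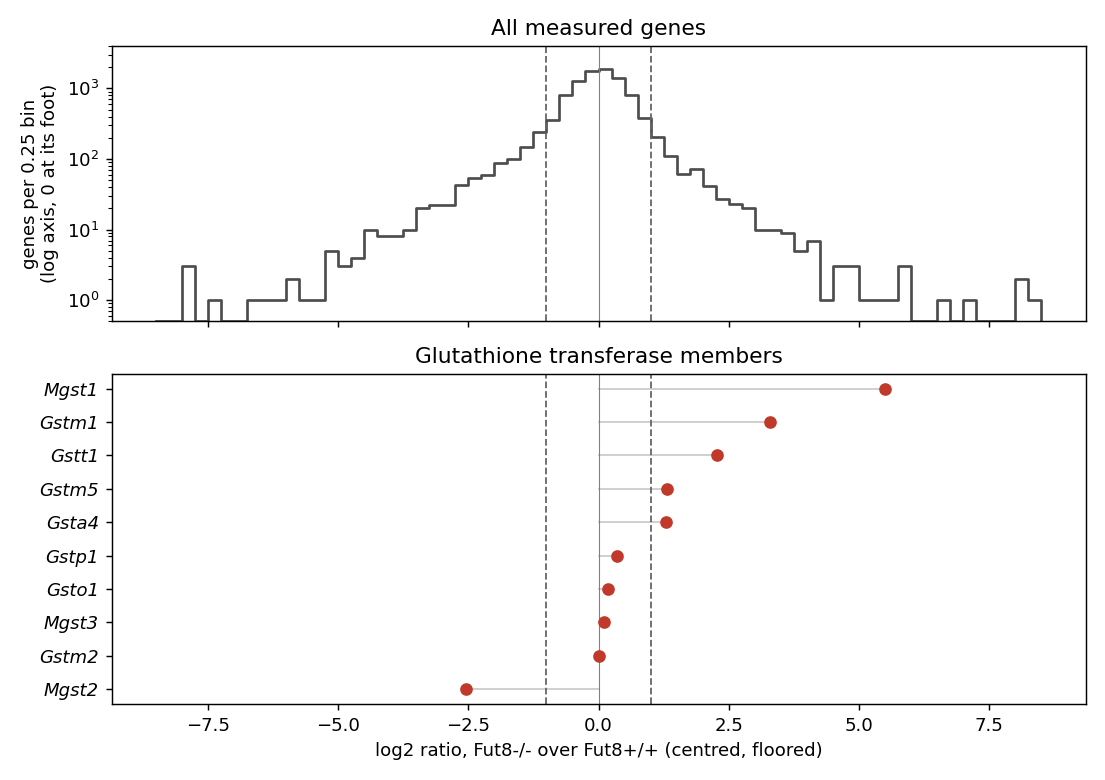
Upper panel, the number of measured genes in each bin of log2 ratio of Fut8-/- over Fut8+/+ (log axis); lower panel, the log2 ratio of each glutathione transferase gene. Dashed lines mark 2-fold. Mgst1 lies far to the right at 5.51, 5 genes lie right of the upper line, and Mgst2 alone lies left of the lower line.

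The other glutathione transferases on the arrays were also mixed within a class. This list, like those below, was drawn up with earlier results of these data known. Of 18 further cytosolic and mitochondrial enzymes, 15 had a probe set and 6 were measured. Gstt3, Gstm3 and Gstm7 were at least 2-fold higher in Fut8-/-, and Gstm4 was at least 2-fold lower. Gstz1 and Gstcd lay between, and the list median was 0.50. The shares over all measured genes were 6.08% higher and 8.46% lower. Gstt3 had 260.2 in Fut8-/- and 126 in Fut8+/+ (log2 ratio 1.26). Gstm3 had 58.6 in Fut8-/- and 32.9 in Fut8+/+ (log2 ratio 1.05), and Gstm7 had 59.3 in Fut8-/- and 33.6 in Fut8+/+ (log2 ratio 1.04). Without centring 1 of these 3, Gstt3, stayed at least 2-fold higher. With the median over all probe sets of a gene, the count of the list was also 1. The suffix of the Gstm3 probe set name marks it as able to read related sequences. Gstm4 had 17.9 in Fut8-/- and 72.9 in Fut8+/+, which is 3.49-fold lower (log2 ratio -1.80). For Gstm3, Gstm7 and Gstm4, the dimmer of the paired signals was under the measured limit of 39.1. Gstz1, the maleylacetoacetate isomerase of tyrosine breakdown, and Gstcd had log2 ratios of -0.04 and -0.03.

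Of the 9 that were not measured, 5 were at the floor on both arrays. Among the other MAPEG genes, 0 of 3 were measured. Alox5ap, whose product presents arachidonate to 5-lipoxygenase, had 16.3 in Fut8-/- and 37.3 in Fut8+/+. Ptges, a prostaglandin E synthase, had 11.5 in Fut8-/- and 37.1 in Fut8+/+. Ltc4s, the leukotriene C4 synthase of leukocytes, had 3.11 in Fut8-/- and 2.18 in Fut8+/+, under the floor on both.

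The mu class genes lie together on chromosome 3 in the order Gstm5, Gstm7, Gstm6, Gstm3, Gstm2, Gstm1 and Gstm4, per the RefSeq gene table of assembly GRCm38.p6. Along this order the log2 ratios were 1.31, 1.04, at least 1.16, 1.05, 0.00, 3.30 and -1.80, where Gstm6 was under the measured limit. The adjacent paralogs Gstm1 and Gstm4 thus lay on opposite sides, 9.84-fold higher and 3.49-fold lower in Fut8-/-. Of the genes up to 8 places from Gstm1 that were not glutathione transferases, 5 were measured, and their log2 ratios ran from 0.06 to 0.88 with a median of 0.54. In the theta class cluster of chromosome 10, Gstt3 and Gstt1 stand next to each other and were both higher. Gstt4 was at the floor on both arrays, and Gstt2, with 6.05 in Fut8-/- and 34.4 in Fut8+/+, was under the measured limit. The 9 measured neighbours of Gstt1 had a median of 0.34.

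Mgst2 also lies on chromosome 3, and its ratio ran against those around it. Of 13 measured neighbours, 12 had a positive log2 ratio and 6 were at least 2-fold higher in Fut8-/-, with a median of 0.98. Without centring, 12 were still positive, but 1, Setd7, was at least 2-fold higher, and the median was 0.76. The nearest gene with a probe set, Setd7, a lysine methyltransferase gene, had 2056 in Fut8-/- and 739 in Fut8+/+ (log2 ratio 1.69). The 1 negative neighbour was Slc7a11, the cystine transporter gene, with 3.54 in Fut8-/- and 95.9 in Fut8+/+, at least 7.77-fold lower. Over the 519 genes measured on chromosome 3, the median was 0.24; 68 passed 2-fold on the higher side and 33 on the lower. Taken relative to that median, the Mgst2 log2 ratio was -2.79 and that of Gstm1 3.06.

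Mgst1 lies on chromosome 6. Of its 6 measured neighbours 5 had a negative log2 ratio, with a median of -0.35, and 2 were at least 2-fold lower in Fut8-/-. Arhgdib had 3.59 in Fut8-/- and 2932 in Fut8+/+, a bound at a log2 ratio of -7.89. Eps8, a regulator of actin, had 394 in Fut8-/- and 1140 in Fut8+/+ (log2 ratio -1.31). Strap (-0.05), Dera (0.05) and Plekha5 (-0.11) were closer to 0 than the probe set spread of 0.40. Relative to the chromosome's median of -0.13 over 492 genes, the Mgst1 log2 ratio was 5.63. The neighbours were looked at after the values were known, so these medians describe the surroundings of the genes and are no test.

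**Figure D3:**
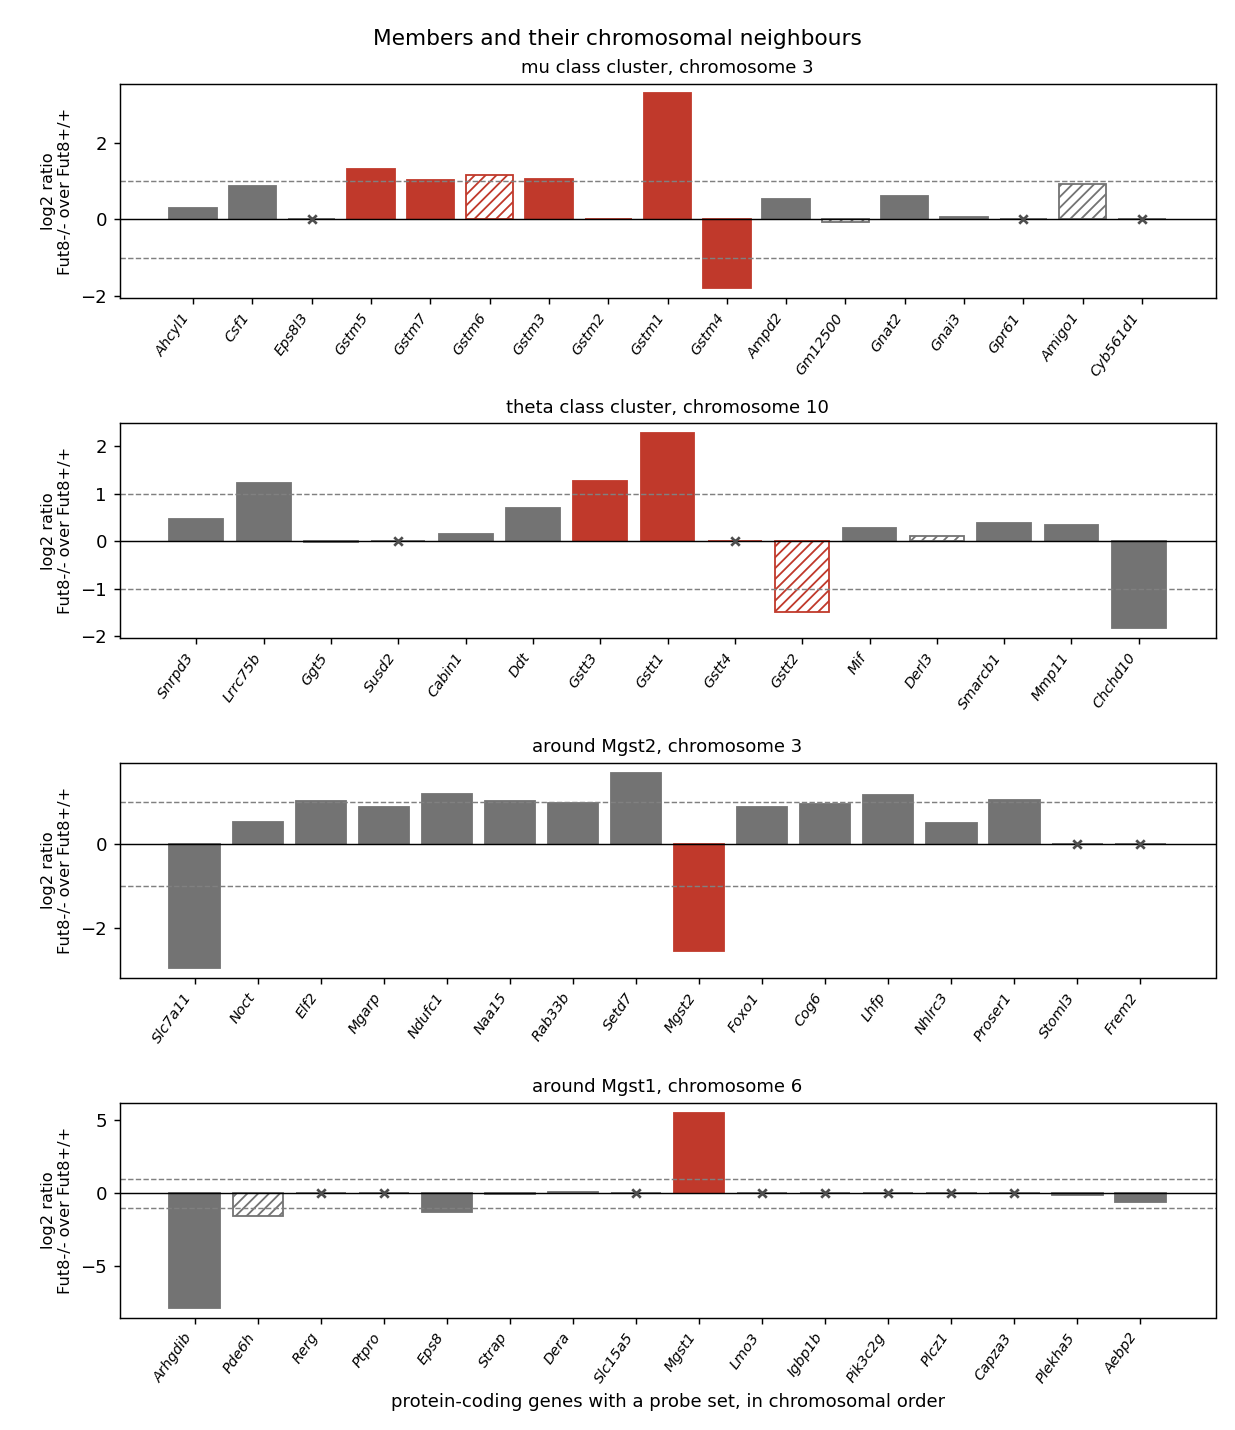
Log2 ratios of Fut8-/- over Fut8+/+ for the genes around Gstm1, Gstt1, Mgst2 and Mgst1 in chromosomal order; glutathione transferases are red and other genes grey. Hatched bars are genes under the measured limit, crosses genes at the floor on both arrays, and dashed lines 2-fold. The mu class ratios run from -1.80 (Gstm4) to 3.30 (Gstm1), and the Mgst2 bar points down among neighbours that point up, apart from Slc7a11.

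Of 13 measured genes that make and recycle glutathione, 3 were past 2-fold on the higher side in Fut8-/- and 2 on the lower side (median 0.34). The shares over all measured genes were 6.08% higher and 8.46% lower. The higher ones were Glrx, Gclc and Gclm. Glrx, the glutaredoxin that removes glutathione from proteins, had 256 in Fut8-/- and 82.1 in Fut8+/+, which is 3.62-fold higher. The subunits of glutamate-cysteine ligase, the first enzyme of glutathione synthesis, were both higher: Gclc had 499.9 in Fut8-/- and 266 in Fut8+/+ (log2 ratio 1.13). Gclm, named after its value was seen, had 2292 in Fut8-/- and 1230.0 in Fut8+/+ (log2 ratio 1.12). Without centring Glrx stayed past 2-fold and the ligase subunits did not. The lower ones were Slc7a11 and Chac1, the glutathione-degrading enzyme, with 255 in Fut8-/- and 1168 in Fut8+/+ (log2 ratio -1.98).

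Of the Nrf2 regulators and other Nrf2 targets, 4 of 20 measured were at least 2-fold higher in Fut8-/- and 1 was lower by that much (median 0.39). Among all measured genes these shares were 6.08% and 8.46%. Cbr3, a carbonyl reductase gene, had 179 in Fut8-/- and 14.2 in Fut8+/+, which is 14.7-fold higher. Nqo1, the quinone reductase, had 231 in Fut8-/- and 107 in Fut8+/+ (log2 ratio 1.33). Ephx1, the microsomal epoxide hydrolase, had 651 in Fut8-/- and 304 in Fut8+/+ (log2 ratio 1.32). The gene of Nrf2 itself, Nfe2l2, which was named after its value was seen, had 665 in Fut8-/- and 373 in Fut8+/+ (log2 ratio 1.05). Without centring its log2 ratio was 0.84, which left 3 of the list at least 2-fold higher. Maff, a small Maf partner of Nrf2, was lower, with 31.7 in Fut8-/- and 126 in Fut8+/+ (log2 ratio -1.77). Other well-known targets were within 2-fold, among them Hmox1 at 0.77, Srxn1 at 0.78 and Txnrd1 at 0.21 on the log2 scale.

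All 6 measured peroxidases and peroxiredoxins lay within 2-fold, with a median of 0.19. So did most measured genes, of which 6.08% were at least 2-fold higher and 8.46% lower. Nothing is therefore read from this count or the next. The values of Gpx1 (0.44), Prdx3 (0.44), Gpx4 (0.25) and Gpx8 (-0.21) were the most distant from 0 among them. Of the genes for export of conjugates and the mercapturate steps after it, 7 of 8 measured lay within 2-fold (median 0.10). Abcg2, an efflux pump gene, was the exception, with 428 in Fut8-/- and 1325 in Fut8+/+ (log2 ratio -1.41). Abcc1, a pump that exports glutathione conjugates, had a log2 ratio of 0.35, Lap3 0.61 and Acy1 0.60.

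**Figure D4:**
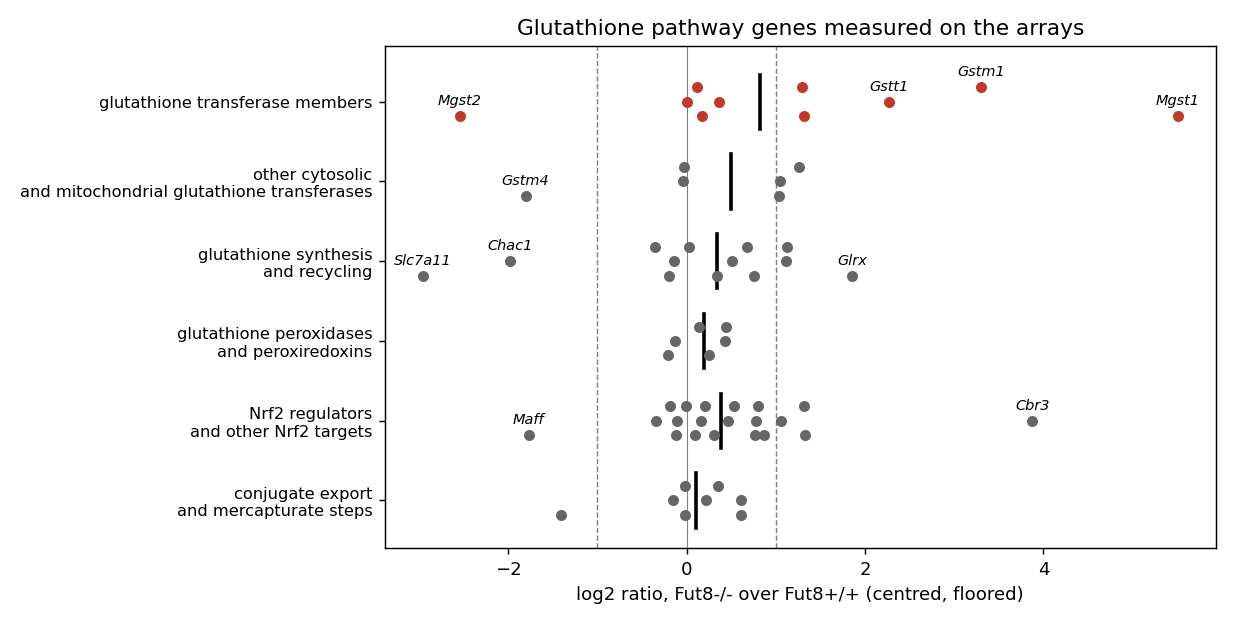
Log2 ratio of Fut8-/- over Fut8+/+ for each measured gene (point) of the glutathione transferase members (red) and 5 related lists (grey); the bar is the list's median and dashed lines mark 2-fold. The members, which were selected on these ratios, run from -2.55 to 5.51, and the peroxidases, like most measured genes, lie within 2-fold.

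With 2 arrays, likeness to a member can only mean nearness of both log2 signals. By that measure the genes nearest to Mgst1 were Ces1g, a carboxylesterase gene (469 in Fut8-/- and 21.3 in Fut8+/+), Postn (984 and 11.3) and Cyp1b1 (506 and 38.0). Those nearest to Gstm1 were Id3, Hspa1b and Rfxap, with log2 ratios of 3.05, 2.39 and 2.29. Nearest to Mgst2 were Sspn, Brwd1 and Irf7 (-2.64, -2.21 and -2.84), and to Gstt1 Sema3c, Mylk and Rab26os (2.11, 2.02 and 1.96). Gsta4 was nearest to Slc40a1, Mrps27 and Lurap1l, and Gstm5 to Tubb2a, Preb and Nsmce2. None of these is a glutathione transferase.

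Markers of other cells that carry glutathione transferases were also read, since fewer cells of a type and less RNA per cell cannot be told apart in bulk RNA. Of 14 epithelial markers, 3 were measured and 7 were at the floor on both arrays, Cdh1 among them; their summed scaled signal was 385 in Fut8-/- and 163 in Fut8+/+. Krt19 had 155 in Fut8-/- and 2.08 in Fut8+/+, and Dsp 71.1 in Fut8-/- and 5.07 in Fut8+/+, whereas Epcam had 15.9 in Fut8-/- and 44.9 in Fut8+/+. Of 9 hepatocyte markers on the arrays, 1 was measured, Afp, with 67.3 in Fut8-/- and 942 in Fut8+/+. Alb was at the floor on both, and the summed scaled signal was 149 in Fut8-/- and 1008 in Fut8+/+. Adipocyte markers summed to 78.3 in Fut8-/- and 92.8 in Fut8+/+, with 1 of 7 measured, Pparg (20.3 in Fut8-/- and 61.4 in Fut8+/+). Macrophage and leukocyte markers (2 of 10 measured, Csf1r and Cd14) summed to 199.9 in Fut8-/- and 275 in Fut8+/+. Endothelial markers (2 of 10 measured, Egfl7 and Eng) summed to 272 in Fut8-/- and 369 in Fut8+/+. Of 15 fibroblast markers 11 were measured, with a median log2 ratio of -0.65. Of these 11, 1 was at least 2-fold higher in Fut8-/-, Pdgfrb, and 4 were at least 2-fold lower, Prrx1, Fbln2, Col1a1 and Pdgfra. Over all measured genes, 6.08% were higher and 8.46% lower by that much, with a median of 0.00. Without centring the Pdgfrb log2 ratio was 0.87, under 2-fold. The summed scaled signal of the list, most of it from Vim, Col1a2 and S100a4, was 39923 in Fut8-/- and 38984 in Fut8+/+. All sums given here are of scaled signals, in which Fut8-/- values are multiplied by 1.16. The order of the fibroblast sums depends on that scaling. The part of other cells in the transferase differences was not tested.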

How the data were processed

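The authors deposited a linear signal intensity for each of 45101 probe sets on both arrays. GCOS, the operating software of Affymetrix scanners, made them, per the submitters' processing notes. Its version, algorithm and scaling target are not stated there, so scale and centring are unknown beyond the values being linear. Median signals were 16.9 in Fut8-/- and 20.5 in Fut8+/+. Mean signals after trimming 2% at each end were 164 in Fut8-/- and 189 in Fut8+/+, so the arrays differed in trimmed mean. Whether they had been scaled to a common target was not tested.

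Log2 ratios were centred on the median (-0.22) of those probe sets that exceeded the 40th percentile of each array, then floored at the 40th percentile of the pooled scaled signals. The measured limit was their 60th percentile. Of the probe sets, 34945 had 1 gene symbol and were used, 932 had several, 9160 had none and 64 were controls. Gene identifiers matched the RefSeq gene table for 34741 and changed 0 symbols. For 18 spiked hybridisation controls the median log2 ratio was 0.16 once centred, and -0.06 before that.

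Members, lists and limits were chosen with earlier results of these data known. Named genes were the 10 members, up to 4 measured genes per list with the largest absolute ratio, the 3 genes nearest to each member past 2-fold, Fut8 and 4 sex-linked genes; others were named after their values were seen. Alternatives covered centring, floor, filter, probe set choice and fold limit. The steps, run in Python 3.11.15 with pandas 2.3.3, were tested on simulated data. The simulated noise was drawn from differences among probe sets of the same gene and held no spread between cultures. The simulation is therefore no check on the genotype differences.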

Additional observations from a re-analysis of the deposited data

Results flagged for a closer look

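A probe set that the annotation assigns to 3 genes together, Gm3776, Gsta2 and Gsta1, stood outside the comparison because it names no gene alone. Its signal was 57.9 on the Fut8-/- array, over the measured limit, against 11.8 on the Fut8+/+ array, which is at the floor, so it was at least 5.45-fold higher in Fut8-/-. The probe set of Gsta2 alone was at the floor on both arrays, with 2.22 in Fut8-/- and 1.43 in Fut8+/+. Which of the 3 genes gives the signal cannot be told from these values.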

How the results depend on the processing

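No paired analysis was possible because each genotype has 1 array. Over 12 other settings, the 10 genes kept 5 higher and 1 lower, except that 3 were higher with a 3-fold limit, and their median ran between 0.61 and 0.82. No ratio past 2-fold turned its sign. Of 100 gene values under 10 settings, 3 moved by more than the probe set spread of 0.40: Mgst1 to 2.75 and Gstm1 to 2.85 with the median over all probe sets, and Mgst1 to 4.61 with a floor at the 60th percentile. Apart from that last value, the floor and filter settings left every gene value unchanged. Their limits did not reach the signals used, so these settings were no check on those values. Leaving out probe sets marked as shared was added after seeing the data.

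Among the other transferases, the 3 higher became 1 without centring, with each chromosome centred, with the floor at the 60th percentile, with the filter at the 75th and with the median over probe sets, and 0 with a 3-fold limit. The 1 lower became 0 with that floor or filter and 3 without a filter; the median of 0.50 became -0.032 with the filter at the 75th percentile or without shared probe sets, and 0 without a filter. Of glutathione synthesis genes, the 3 higher became 1 without centring or with a 3-fold limit and 5 with a 1.5-fold limit, and the 2 lower became 1 with the filter at the 75th percentile. Of Nrf2 genes, the 4 higher became 8 with a 1.5-fold and 1 with a 3-fold limit, and the 1 lower became 0 with that filter. Of export genes, 0 higher became 2 with a 1.5-fold limit and the 1 lower 0 with a 3-fold limit. The causes were not tested, beyond the settings counting fewer or more genes by construction. Over all genes, 618 higher and 860 lower became 416 and 1205 without centring, and 459 and 633 with the floor at the 60th percentile. The low signals limit Mgst1 in Fut8+/+ (21.0), near the floor.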
